A study of Mus musculus with 16 samples.

Results

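The collagen chains of mouse adipose tissue (AT) were followed in every library of a bulk RNA sequencing study of obesity. A table entry, which stands for 1 RefSeq transcript, was taken as a collagen chain where its gene symbol had the form Col, a type number, the letter a and a chain number. This gave 205 of 130343 transcripts, from 44 genes, of which 21 transcripts from 18 genes had enough counts to be tested among 13288 transcripts in all.

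Collagens are built from chains that repeat the motif Gly-X-Y, in which X and Y are often prolines, and the chains wind into a triple helix inside the cell before the molecule is secreted. Fibrillar collagens pack into the load-bearing fibrils of the interstitium, basement membrane collagens (type IV) form the sheet that wraps each adipocyte and underlies the endothelium, and microfibrillar collagen (type VI) forms beaded filaments that surround fat cells. Fibril-associated collagens sit on the fibril surface, multiplexins carry interrupted helices near basement membranes, short-chain collagens form polygonal networks in vessel walls and other matrices, and transmembrane collagens remain on the cell surface.

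Libraries came from 8 male C57BL/6J mice labelled WT. Lean and obese mice were age-matched, and each group was on its diet from 10 weeks of age and for 12 to 14 months. Obese mice received a high-fat diet (TD.88137) with 42% of its energy from fat and 0.2% cholesterol, whereas lean mice were kept on a normal laboratory diet. Each mouse gave inguinal subcutaneous adipose tissue (SAT), with the left and right depots combined, and mesenteric visceral adipose tissue (VAT), dissected from the intact bowel. Visible vessels were removed from the adipose tissue, SAT and VAT alike. The groups were thus SAT lean, SAT obese, VAT lean and VAT obese, with 4 mice each, and the questions were which collagen transcripts differed with the diet in each depot, whether the depots differed in that response, and how VAT differed from SAT. In whole tissue, fewer cells of a type cannot be told apart from less RNA per cell.

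Library totals ran from 1256082 counts (VAT lean 1) to 16614407 counts (SAT obese 3), and VAT obese 1, with 2247737 counts, was the other shallow library. A single count was worth 0.0602 to 0.796 CPM (counts scaled to the library total), and 0 counts in VAT lean 1 allowed a level of up to 2.39 CPM (3 counts, counting error only). Adipocyte markers (8 genes) summed to 10082 CPM or more in every library, while skeletal muscle markers (6 genes, Tnnt3 at 0 counts) reached at most 1.97 CPM and keratinocyte markers (5 genes, Krt5 at 0 counts) at most 3.65 CPM. Mesothelial markers (7 genes) summed to 252 to 626 CPM in VAT and to at most 1.41 CPM in SAT.

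Collagen transcripts held 0.930% to 1.64% of all counts in SAT lean, 0.668% to 1.21% in SAT obese, 0.785% to 1.22% in VAT lean and 0.863% to 1.30% in VAT obese. The 11 genes listed with 1 transcript, 9 of them tested, held 90.0% of these counts, and 33 genes were split over several transcripts, of which 9 had a tested transcript. Of the 184 transcripts that were not tested, 155 had 0 counts in all 16 libraries, and together they held 0.0259% of the collagen counts. In all, 10 of the split genes were at 0 counts, among them Col4a1, the partner of Col4a2 in the common type IV trimer, and Col14a1, a fibril-associated chain. Col6a3, the long chain of type VI, had 12 counts over 6 transcripts, and Col18a1, the endostatin-bearing multiplexin, had 77 counts over 7 transcripts. All of these genes are listed with several transcripts, how reads shared by transcripts were counted is not given in the sources used here, and so their low counts were not read as low expression.

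The sequence feature that the chains share is shown with exons of exactly 54 bases, the length of 6 Gly-X-Y repeats, from the chains on which the comparisons turn. Each is the first such coding exon with a glycine codon at each Gly position in the GENCODE transcript of the gene, read from GRCm39 in the direction of transcription, with the codons at the Gly positions in capitals. The first 3 are from fibrillar chains, the next from the fibril-associated chain and the last 3 from basement membrane chains.
Col1a1, chr11:94830730-94830783, plus strand: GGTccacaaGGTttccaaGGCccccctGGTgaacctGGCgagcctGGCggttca
Col1a2, chr6:4515481-4515534, plus strand: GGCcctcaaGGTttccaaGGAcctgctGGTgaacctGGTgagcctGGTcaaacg
Col3a1, chr1:45364520-45364573, plus strand: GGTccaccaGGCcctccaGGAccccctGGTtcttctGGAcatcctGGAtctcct
Col12a1, chr9:79521631-79521684, minus strand: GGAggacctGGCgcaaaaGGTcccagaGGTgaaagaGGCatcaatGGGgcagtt
Col4a2, chr8:11463979-11464032, plus strand: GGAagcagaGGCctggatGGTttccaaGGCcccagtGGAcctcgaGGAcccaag
Col4a3, chr1:82628975-82629028, plus strand: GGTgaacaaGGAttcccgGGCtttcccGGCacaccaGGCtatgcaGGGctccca
Col4a4, chr1:82506473-82506526, minus strand: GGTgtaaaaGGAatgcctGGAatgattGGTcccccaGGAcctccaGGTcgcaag

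All 7 exons carry a glycine codon (GGN) at each of 6 Gly positions, but the classes differ in how far the repeat runs through the chain and in how often this exon length recurs. Fibrillar chains (11 genes) held their longest unbroken Gly-X-Y run over 216 to 344 repeats, with a median of 338, and 41.2% to 55.0% of their coding exons had 54 bases. In basement membrane chains (6 genes) the longest run was 39 to 66 repeats and 2.13% to 5.66% of the coding exons had 54 bases, and in microfibrillar chains (6 genes) the run was 37 to 87 repeats. Col12a1, a long fibril-associated chain on chromosome 9 (79506268 to 79626135, minus strand), had 4 such exons among 65 coding exons and a longest run of 32 repeats. Col8a1, a short-chain collagen on chromosome 16 (57444621 to 57575100, minus strand), is encoded by 2 coding exons with no exon of 54 bases. Col4a3 and Col4a4, chains of the trimer best known from the glomerular basement membrane, lie head to head on chromosome 1, with starts at 82564697 (plus strand) and 82564800 (minus strand) in the GENCODE transcripts, 103 bases apart and with overlapping 5′ ends. The library kit kept strand, but the strand setting of the counting is not given in the sources used here.

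**Figure D1:**
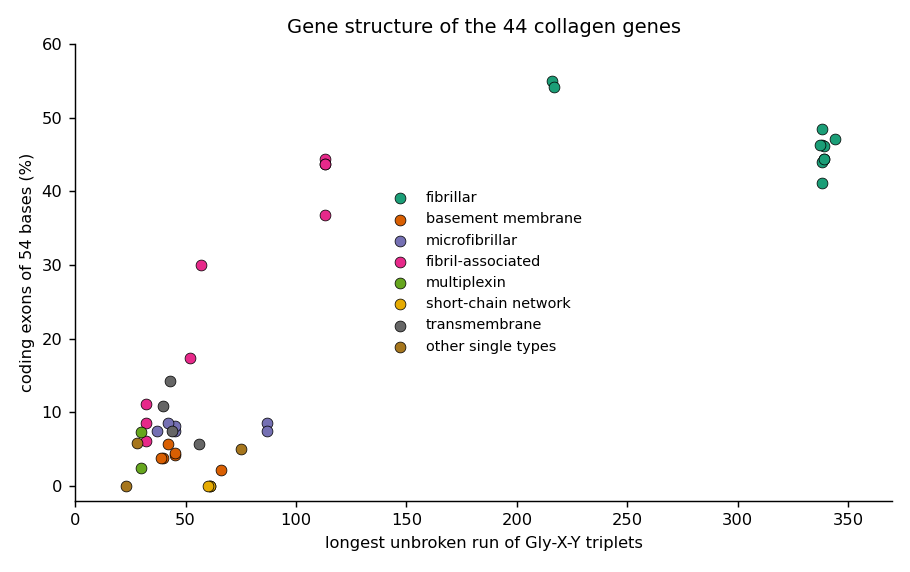
Structure of the 44 collagen genes in the GENCODE annotation of GRCm39, with the longest unbroken run of Gly-X-Y repeats on the x axis (repeats) and the share of coding exons of exactly 54 bases on the y axis (percent), coloured by class. Fibrillar chains stand apart at 216 to 344 repeats, and all other classes lie at 113 repeats or fewer.

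Levels were compared between genes as CPM per kilobase of the canonical GENCODE transcript, with the counts of a gene's transcripts summed. Only the 18 genes with a tested transcript were ranked, so Col4a1 and Col6a3 are not in the order. Levels of genes split over several transcripts carry the unknown treatment of shared reads. Col3a1, the chain of the fibrillar type III homotrimer, was the most abundant of these 18 genes in each group, with means of 640.4, 637 and 574 CPM per kb in SAT lean, SAT obese and VAT lean and 569 CPM per kb in VAT obese. Col4a2, a type IV chain of nearly all basement membranes, came next with means of 400, 471, 258 and 272 CPM per kb in the same order. Below it lay Col1a2 (179 to 281 CPM per kb), Col6a1 (177 to 253), Col1a1 (114 to 212), Col15a1 (77.5 to 135), Col5a2 (68.5 to 121) and Col6a2 (50.3 to 68.0), as ranges of the group means. The other 10 tested genes had group means from 0.0456 CPM per kb (Col7a1, SAT obese) to 14.6 CPM per kb (Col8a1, VAT obese). The order by mean was not fixed: in VAT obese Col6a1 (253 CPM per kb) lay above Col1a2 (225 CPM per kb), and in SAT obese below it (177 against 226 CPM per kb). Of 17 pairs of neighbours in the order within a group, 14 overlapped between libraries in SAT lean, 12 in SAT obese, 13 in VAT lean and 11 in VAT obese. Col6a2 and Col8a1, the neighbours at the gap between the abundant and the scarce chains, did not overlap in any group, while Col3a1 and Col4a2 overlapped in SAT and not in VAT.

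Class shares were taken of the summed level per kb of the 18 genes with a tested transcript. Fibrillar chains held 59.7% ± 2.47 in SAT lean, 59.6% ± 3.76 in SAT obese, 58.8% ± 1.82 in VAT lean and 59.9% ± 4.56 in VAT obese (SD, n = 4). Col4a1, Col6a3, Col14a1 and Col18a1, whose low counts were not read as low expression, did not enter these shares. The shares therefore describe the counted transcripts and not the collagen make-up of the tissue. The microfibrillar share lay between 14.0% and 14.3% in SAT lean and between 10.6% and 11.8% in SAT obese, so these groups did not overlap. It was 17.0% to 19.6% in VAT lean and 16.3% to 19.8% in VAT obese, above all SAT libraries. Basement membrane chains held 19.3% ± 1.89, 23.2% ± 3.07, 16.2% ± 1.27 and 15.8% ± 3.27 in SAT lean, SAT obese, VAT lean and VAT obese. The fibril-associated share was 0.0428%, 0.156%, 0.149% and 0.257% in the same order. It rested on Col12a1 and Col16a1, listed with 3 and 8 transcripts, and was not read as a low level of the class. Shares sum to a fixed total, so a change in 1 class moves the others.

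**Figure D2:**
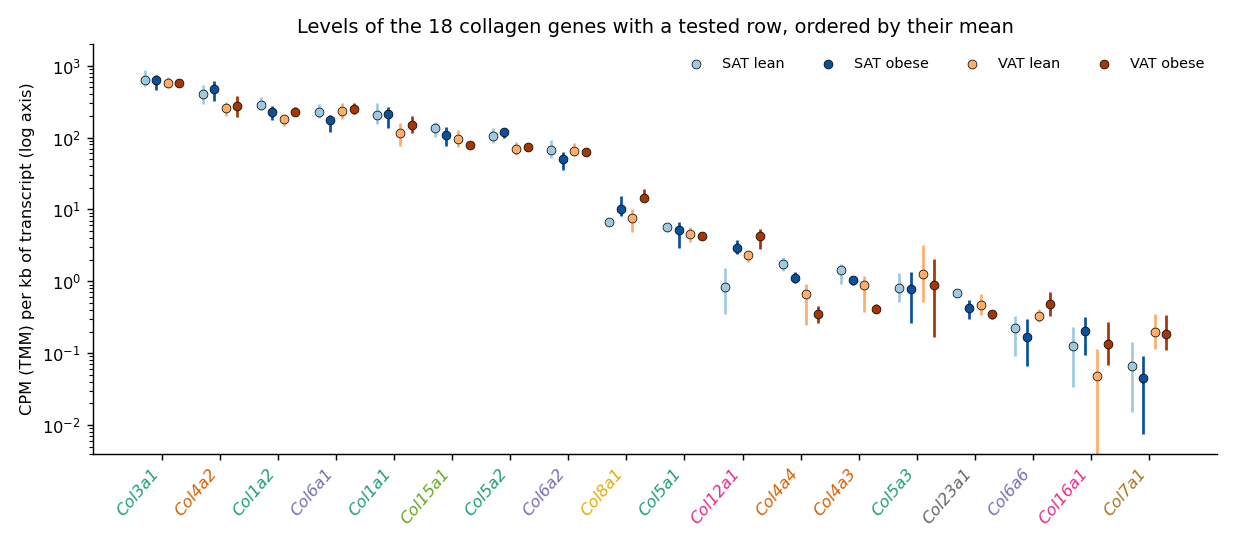
Level of the 18 tested collagen genes in CPM per kb (log axis), with a point for the mean of each group and a line from its lowest to its highest library, and gene names of the same class in the same colour. Col3a1 lies highest in all 4 groups, Col7a1 lies lowest in SAT and Col16a1 in VAT, and the line of Col16a1 in VAT lean reaches 0 and leaves the axis.

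Between obese and lean mice, 4 collagen transcripts passed the test in SAT or VAT, at an adjusted p below 0.05 in edgeR's quasi-likelihood test with Benjamini-Hochberg adjustment over all 13288 transcripts. Col12a1 was upregulated in both depots, Col8a1 was upregulated in VAT, and Col4a3 and Col4a4 were downregulated in VAT. The abundant fibrillar chains and Col4a2 passed in neither depot. Levels below are CPM scaled by TMM (trimmed mean of M values) and are listed for mice 1 to 4 of a group.

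In SAT, Col12a1 (NM_001290308), which bridges collagen fibrils to other matrix proteins, was at 9.01, 7.32, 3.91 and 18.3 CPM in lean mice. In obese mice it was at 30.8, 34.9, 43.7 and 27.9 CPM. All obese libraries lay above all lean ones, with the highest lean value in lean mouse 4 and the highest obese value in obese mouse 3. The rise was 3.74-fold (log2 1.90, SE 0.30, 95% interval 1.29 to 2.52, adjusted p = 0.000191) and was past the log2 limit of 1.5 that the study used. It was the 1 of 21 collagen transcripts called in SAT, beside 11.0% of all transcripts called in either direction, 6.20% called higher and 2.75% called beyond the limit. The call held in all 8 fits that left out a mouse, with log2 values of 1.62 to 2.33.

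Col8a1 (NM_007739), whose product is a subunit of the network-forming type VIII collagen of vessel walls, was at 35.3, 35.0, 32.0 and 32.1 CPM in lean SAT. In obese SAT it was at 41.5, 41.8, 78.7 and 46.2 CPM. The groups did not overlap, but obese mouse 3 stood far above the others, and the difference (log2 0.63, SE 0.21, 95% interval 0.20 to 1.06, adjusted p = 0.0504) did not pass. Without obese mouse 3 the log2 difference was 0.36 (adjusted p = 0.275), whereas without obese mouse 1 or obese mouse 2 the transcript passed, at log2 0.72 in each case, which made 2 collagen transcripts called higher. Non-overlap of this kind, with all obese libraries above, was found in 2 of 21 collagen transcripts and in 9.61% of all transcripts.

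No collagen transcript was called lower in obese SAT in the main fit (edgeR with TMM and legacy estimation over all 16 libraries, without a block). There 4 were lower at an unadjusted p below 0.05, beside 4.85% of all transcripts called lower. With current edgeR estimation 2 were called lower (Col4a4, adjusted p = 0.0212, and Col23a1, 0.0343), as were 2 within SAT libraries alone (Col4a4, 0.0217, and a Col6a2 transcript, 0.0432) and 2 by DESeq2. Col4a4 (XM_011238652) was at 21.2, 14.2, 14.8 and 22.1 CPM in lean SAT and at 9.92, 11.1, 13.4 and 10.3 CPM in obese SAT (log2 -0.69, SE 0.23, 95% interval -1.17 to -0.21, adjusted p = 0.0577). Col23a1, a transmembrane collagen, was at 4.38, 3.52, 3.91 and 4.47 CPM in lean SAT and at 1.62, 3.18, 2.62 and 2.39 CPM in obese SAT (log2 -0.74, SE 0.26, 95% interval -1.27 to -0.20, adjusted p = 0.0704). These and a Col6a2 transcript (NM_001347207; log2 -0.47, adjusted p = 0.0653) had all obese libraries below all lean ones, as did 7.64% of all transcripts. The median over the 21 collagen transcripts was a log2 difference of -0.31, against 0.01 over all transcripts, and 14 of the 21 values were negative. This median rested in part on single mice: it was -0.16 without lean mouse 1, -0.17 without lean mouse 4 and -0.16 without obese mouse 4, with 12 negative values each. Of the 20 collagen transcripts with a mean above 1 CPM, SAT of lean mouse 4 was the highest lean library in 15 and SAT of obese mouse 4 the lowest obese library in 14. All 4 microfibrillar values were negative (median -0.45), with none called. With total-count scaling in place of TMM, 1 was called higher and 4 lower.

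**Figure D3:**
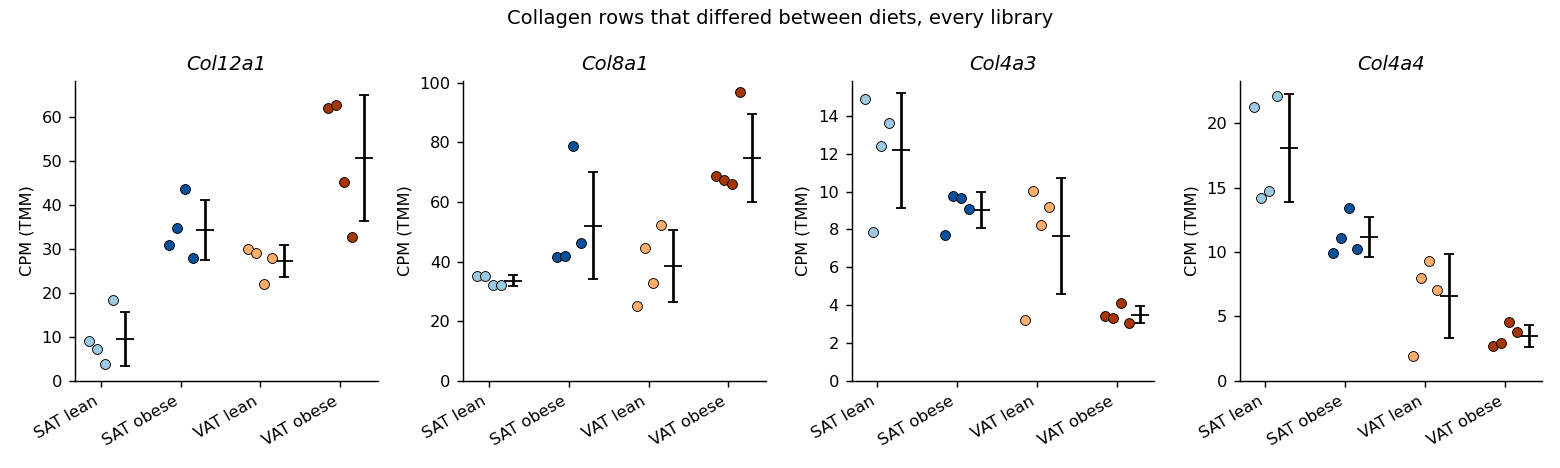
TMM-scaled CPM (y axis, from 0) of Col12a1, Col8a1, Col4a3 and Col4a4 by group, with a dot per library and a bar for the mean ± SD of 4 mice. Col12a1 lies higher in obese than in lean mice in both depots, with group means of 9.63, 34.3, 27.3 and 50.7 CPM from SAT lean to VAT obese, and Col4a3 and Col4a4 are lowest in VAT obese.

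In VAT, Col12a1 was at 30.1, 29.0, 22.1 and 27.9 CPM in lean mice. In obese mice it was at 62.1, 62.6, 45.3 and 32.8 CPM. The groups did not overlap, with obese mouse 4 closest to the lean libraries, and the rise was 1.86-fold (log2 0.89, SE 0.28, 95% interval 0.31 to 1.48, adjusted p = 0.0424). This call was held in 2 of 8 fits that left out a mouse: it was lost without lean mouse 1, 2 or 3 and without obese mouse 1, 2 or 3, which left 1 collagen transcript called higher, with adjusted p of 0.0318 to 0.148 over the 8 fits. It was also lost without the 2 shallow libraries (log2 0.83, adjusted p = 0.105).

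Col8a1 was at 25.0, 44.7, 32.7 and 52.1 CPM in lean VAT. In obese VAT it was at 68.6, 67.5, 65.9 and 97.0 CPM. Obese mouse 4 was the highest, all obese libraries lay above all lean ones, and the rise was 1.88-fold (log2 0.91, SE 0.21, 95% interval 0.48 to 1.35, adjusted p = 0.00535). It passed in all 8 fits that left out a mouse, at log2 0.76 to 1.04. These 2 of 21 transcripts stand beside 6.82% of all transcripts called higher in VAT, and their non-overlap stands beside 8.36% with all obese libraries above. No collagen transcript had all obese VAT libraries below all lean ones, as 4.99% of all transcripts did, and none that was called was beyond the log2 limit of 1.5, as 3.17% were.

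Col4a3 (NM_007734) was at 3.20, 10.1, 8.26 and 9.17 CPM in lean VAT. In obese VAT it was at 3.45, 3.30, 4.12 and 3.08 CPM. The lean libraries of mice 2 to 4 lay above all obese ones, and lean mouse 1, whose value rested on 5 counts in the shallowest library, lay among them. The decrease was to 0.417 of the lean level (log2 -1.26, SE 0.25, 95% interval -1.78 to -0.74, adjusted p = 0.00181), and it passed in all 8 fits that left out a mouse (log2 -1.42 to -1.14). Its SAT values were 14.9, 7.88, 12.4 and 13.6 CPM in lean mice and 7.69, 9.75, 9.66 and 9.10 CPM in obese mice, where the groups overlapped (log2 -0.43, 95% interval -0.89 to 0.03, adjusted p = 0.228).

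Col4a4 was at 1.92, 8.02, 9.33 and 7.07 CPM in lean VAT and at 2.68, 2.97, 4.60 and 3.77 CPM in obese VAT. Lean mouse 1, with 3 counts, was again the lowest lean library, and the other lean values lay above all obese ones. The decrease was to 0.494 of the lean level (log2 -1.02, SE 0.27, 95% interval -1.58 to -0.46, adjusted p = 0.0151). It was lost without lean mouse 3 (adjusted p = 0.0732), obese mouse 2 (0.0725) or obese mouse 4 (0.0509), which left 1 collagen transcript called lower, and without the 2 shallow libraries it passed at log2 -1.11. The 2 of 21 collagen transcripts called lower stand beside 4.09% of all transcripts called lower in VAT, and the 4 called in either direction beside 10.9%. Per kb, the Col4a4 to Col4a3 ratio was 1.26 ± 0.215 in SAT lean, 1.04 ± 0.118 in SAT obese, 0.736 ± 0.133 in VAT lean and 0.857 ± 0.170 in VAT obese (SD, n = 4). Its libraries ran from 0.993 to 1.49 in SAT lean and from 0.662 to 0.935 in VAT lean. In obese mice they overlapped, at 0.940 to 1.19 in SAT and 0.644 to 1.03 in VAT. Col4a4 is listed with 3 transcripts and Col4a3 with 1, so the ratio carries the unknown treatment of shared reads.

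The chains that make up most of the collagen signal did not pass in either depot, and their intervals bound the change. Col3a1 was at 3294, 3280.3, 2866 and 4813 CPM in lean SAT and at 3696, 3804, 4142 and 2541 CPM in obese SAT (log2 -0.01, 95% interval -0.34 to 0.33). In VAT it was at 3308, 2838, 2706 and 3917 CPM in lean and at 3236, 3143, 2800.3 and 3487 CPM in obese mice (log2 -0.01, 95% interval -0.34 to 0.32). The lean and obese values of Col3a1 were interleaved in both depots. Col1a1 and Col1a2, which together build type I collagen, had log2 differences in SAT of 0.03 (-0.48 to 0.54) and -0.31 (-0.64 to 0.01), and in VAT of 0.37 (-0.14 to 0.88) and 0.33 (0.01 to 0.65, adjusted p = 0.200). The ratio of Col3a1 to Col12a1 per kb was 940.3 ± 399 in SAT lean, 220.4 ± 28.3 in SAT obese, 249.9 ± 38.6 in VAT lean and 144 ± 56.0 in VAT obese.

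Col4a2 was at 3061, 1978, 2168 and 3585 CPM in lean SAT and at 3665, 4182, 2667 and 2195 CPM in obese SAT (log2 0.24, 95% interval -0.22 to 0.70). In VAT it was at 2074, 1362, 1449 and 2077 CPM in lean and at 2567, 1908, 1571 and 1294 CPM in obese mice (log2 0.08, 95% interval -0.38 to 0.54). Its lean and obese values overlapped in both depots. Col15a1 (NM_009928), a multiplexin of the outer basement membrane zone, was at 876, 576, 703 and 933 CPM in lean and at 797, 704, 556 and 441 CPM in obese SAT (log2 -0.31, 95% interval -0.68 to 0.07). In VAT it was at 422, 470.4, 564 and 729 CPM in lean and at 451, 471, 468 and 393 CPM in obese mice (log2 -0.30, 95% interval -0.67 to 0.08).

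Col6a1, an alpha chain of the type VI trimer, was at 929.9, 790.1, 770.3 and 1206 CPM in lean SAT and at 854, 851, 709.6 and 482 CPM in obese SAT (log2 -0.35, 95% interval -0.73 to 0.02). In VAT it was at 957, 747, 839.8 and 1236 CPM in lean and at 1235, 1096, 933 and 879 CPM in obese mice (log2 0.13, 95% interval -0.24 to 0.51). Again the diets overlapped in both depots. Col23a1 in VAT was at 3.84, 2.69, 2.47 and 1.88 CPM in lean and at 1.92, 2.23, 1.72 and 2.23 CPM in obese mice (log2 -0.30, 95% interval -0.90 to 0.30). In VAT the median over the 21 collagen transcripts was a log2 difference of 0.05 (-0.06 to 0.13 without each mouse), against 0.02 over all transcripts, and with total-count scaling 1 was called higher and 2 lower.

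**Figure D4:**
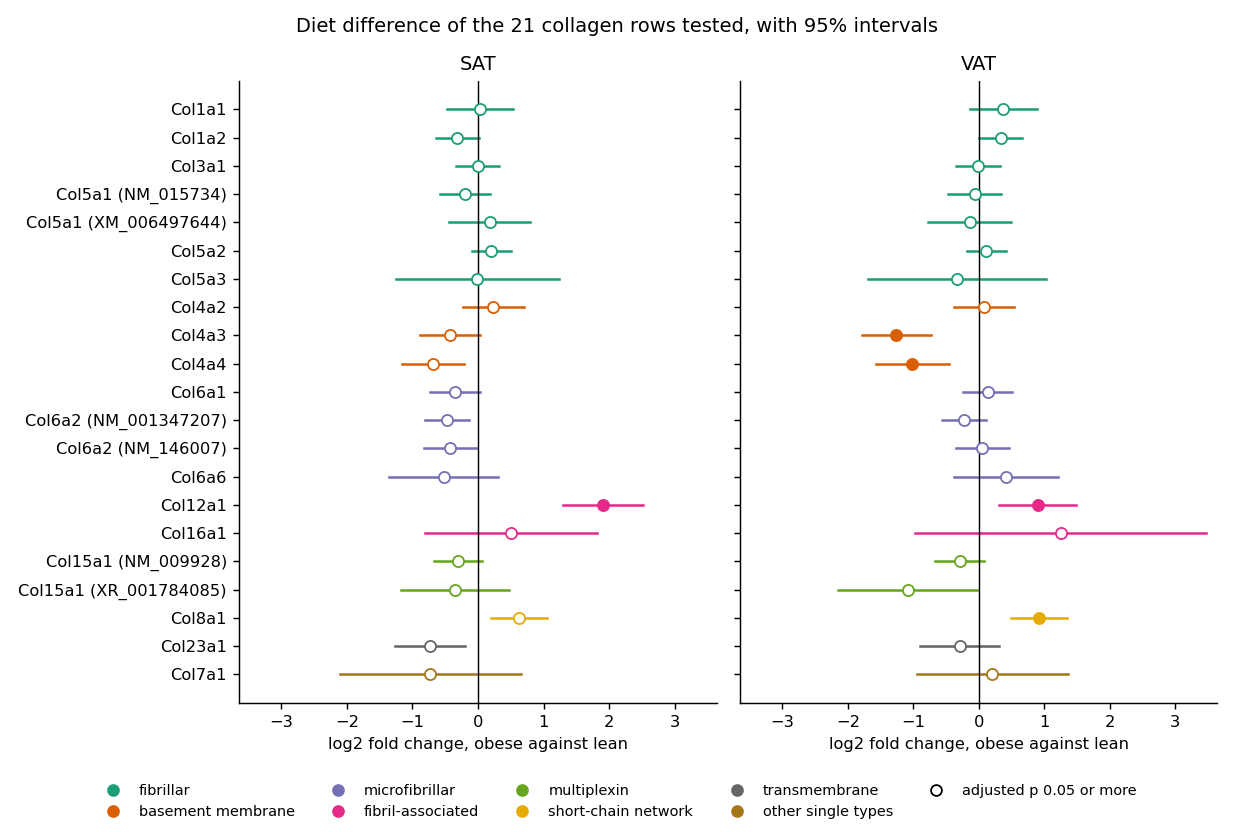
Log2 difference between obese and lean mice (x axis) with its 95% interval for the 21 tested collagen transcripts, in SAT and in VAT, coloured by class, with filled symbols where the adjusted p is below 0.05. Filled symbols are Col12a1 in SAT, and Col12a1, Col8a1, Col4a3 and Col4a4 in VAT, and the intervals of Col3a1 span 0 in both.

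Macrophage markers were higher in obese mice in both depots. Beside the marker counts, 6.20% of all transcripts were called higher and 4.85% lower in SAT, and 6.82% and 4.09% in VAT. Macrophage markers (6 genes) summed to 588 to 757 CPM in SAT lean, 988 to 1449.8 CPM in SAT obese, 939 to 1079 CPM in VAT lean and 1828 to 2509.6 CPM in VAT obese, with 4 of 5 tested transcripts called higher in SAT and 5 of 5 in VAT, the fifth (Itgax) having exceeded 1 CPM only in the 4 VAT libraries of obese mice. Adipocyte markers summed to 19949 to 25164, 19585 to 21616, 12890.3 to 17602 and 10082 to 14624 CPM in the same order, overlapping between diets in both depots, with 1 of 14 transcripts called lower in SAT and 6 of 14 in VAT. Fibroblast and progenitor markers (10 genes) summed to 293 to 865, 458 to 522, 436 to 578 and 549 to 695 CPM, and 0 of 10 transcripts passed with the diet in either depot. The highest lean SAT libraries in this list and in Col12a1 were the same one, lean mouse 4. Endothelial markers (8 genes, Pecam1 at 0 counts) summed to 238 to 466, 351 to 565, 279 to 372 and 292 to 389 CPM, and smooth muscle and pericyte markers (8 genes) to 1439 to 2158, 1848 to 2268, 827 to 1293 and 1071 to 1247 CPM. In SAT 1 of 8 endothelial and 1 of 7 smooth muscle transcripts were called higher, and in VAT none was called. The exocrine pancreas and nerve lists had 1 of 3 transcripts called higher in each depot, and the B cell list 1 of 4 in VAT. The part of these cell types in the collagen differences was not tested.

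A fit that kept each mouse as a block tested whether the response to the diet differed between depots. No collagen transcript passed in the main edgeR fit, where 3 had a higher and 2 a lower response in VAT at an unadjusted p below 0.05. DESeq2 called 3 higher and 1 lower. These counts stand beside 0.880% and 1.29% of all transcripts called by the main edgeR fit (2.17% in either direction, 0.632% beyond the log2 limit). The response of Col12a1 was lower in VAT than in SAT (log2 -1.15, SE 0.31, 95% interval -1.79 to -0.51, adjusted p = 0.0536), and it passed without lean mouse 4 or obese mouse 1, at log2 -1.58 and -1.33, and without the filter, at -1.22. With total-count scaling 3 responses were called higher in VAT and none lower. The response of Col1a2 was 0.65 higher in VAT (SE 0.18, 95% interval 0.27 to 1.02, adjusted p = 0.0638), and it passed without lean mouse 1 (0.0395) or obese mouse 3 (0.0191), by DESeq2 and with total-count scaling. The response of Col6a1 was 0.51 higher (SE 0.14, 95% interval 0.21 to 0.81, adjusted p = 0.0654), and it passed by DESeq2 (0.0228) and with total-count scaling (0.0137). That of a Col6a2 transcript (NM_146007) was 0.49 higher (adjusted p = 0.104), and it passed under the same alternatives (0.0492 and 0.0195). For Col4a3, called in VAT and not in SAT, the difference between depots was -0.87 (adjusted p = 0.249). The median over collagen transcripts was 0.19, against 0.03 over all transcripts, and -0.05 to 0.23 without each mouse, the lowest without obese mouse 4.

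Between depots of the same mice, more collagen transcripts differed. In lean mice 2 of 21 were higher and 7 lower in VAT than in SAT, beside 8.0% and 6.84% of all transcripts (14.8% in either direction). In obese mice 6 were higher and 8 lower, beside 15.9% and 13.5% (29.4% in either direction). Beyond the log2 limit were 2 in lean and 5 in obese mice, beside 5.44% and 9.59%. With total-count scaling 3 were higher and 6 lower in lean mice, and 8 higher and 5 lower in obese mice. The transcripts of Col7a1 and Col16a1 entered the test through 1 depot, exceeding 1 CPM in 1 and 4 SAT and in 8 and 0 VAT libraries, so that their depot differences follow in part from the filter and lend no support to these counts. Among the other 19, 1 was higher and 7 were lower in lean mice, and 5 were higher and 7 lower in obese mice. Lower in VAT in both diets were Col1a1, Col4a2, Col4a4, Col5a2 and Col15a1 (NM_009928), and higher in both was Col7a1. In obese mice all 4 microfibrillar transcripts were higher and all 3 basement membrane transcripts were lower in VAT.

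Among fibrillar chains, Col1a1 was at 1326, 914, 906 and 1768 CPM in SAT and at 945, 449.7, 494 and 819.8 CPM in VAT of lean mice. It was lower in VAT in all 4 mice (log2 -0.88, SE 0.14, adjusted p = 5.99e-05). Col1a2 was at 1451, 1326, 1284 and 1969.7 CPM in SAT and at 1095, 880.2, 768 and 1101 CPM in VAT of lean mice, without overlap (log2 -0.65, SE 0.13, adjusted p = 0.00105). In obese mice Col1a1 was at 1472, 1597, 1147 and 805 CPM in SAT and at 1172, 797, 693 and 828 CPM in VAT. It was lower in VAT in 3 of the 4 obese mice (log2 -0.51, SE 0.14, adjusted p = 0.00661), a call that was lost without obese mouse 2 (adjusted p = 0.0924) or obese mouse 3 (0.0528), without the mouse block (0.116) and with total-count scaling (0.429). Col1a2 in obese mice was at 1216, 1212, 1478 and 945 CPM in SAT and at 1270.2, 1080.1, 1060.1 and 1421 CPM in VAT, higher in VAT in 2 mice and lower in 2 (log2 0.00, 95% interval -0.27 to 0.27). Col5a2, a regulatory chain of type I fibrils, was lower in VAT in all mice of both diets (log2 -0.61, SE 0.10, adjusted p = 0.000113 in lean and log2 -0.70, SE 0.10, adjusted p = 1.05e-05 in obese mice). Col3a1 differed by log2 -0.15 in each diet and did not pass (95% intervals -0.40 to 0.11 in both), except without obese mouse 4, where it was lower in VAT of obese mice (log2 -0.34, adjusted p = 0.0286). Per kb its ratio to Col1a1 was 3.19 ± 0.521 in SAT lean, 3.11 ± 0.613 in SAT obese, 5.35 ± 1.27 in VAT lean and 3.99 ± 0.706 in VAT obese. The transcripts of Col5a1, another type V chain, had values in opposite directions in lean mice. NM_015734 was lower in VAT (log2 -0.58, adjusted p = 0.0303), a call lost without lean mouse 1 or 3, the mouse block or the 2 shallow libraries and with total-count scaling. XM_006497644 had higher values in VAT in 4 of 4 lean mice and did not pass (log2 0.59, adjusted p = 0.0693), except with total-count scaling (log2 0.73, adjusted p = 0.0348). Summed per gene, Col5a1 differed by -0.31 and did not pass (adjusted p = 0.199).

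Among basement membrane chains, Col4a4 was lower in VAT without overlap in either diet (log2 -1.28, SE 0.25, adjusted p = 0.000928 in lean and log2 -1.66, SE 0.26, adjusted p = 4.77e-05 in obese mice). Col4a3 differed by log2 -0.53 (95% interval -1.05 to -0.00338, adjusted p = 0.182) in lean mice, passing only without lean mouse 2 (log2 -0.88, adjusted p = 0.0431) among the alternatives run. It was lower in VAT of obese mice, again without overlap (log2 -1.40, SE 0.26, adjusted p = 0.000299). Col4a2 was lower in VAT in every mouse (log2 -0.62, SE 0.10, adjusted p = 0.000171 in lean and log2 -0.79, SE 0.10, adjusted p = 4.53e-06 in obese mice), and the lean call was lost without the mouse block (adjusted p = 0.0629). Col15a1 (NM_009928) was lower in VAT in lean (log2 -0.50, adjusted p = 0.00894) and obese mice (log2 -0.45, adjusted p = 0.00959), calls that were lost without lean mouse 1 or the mouse block (lean) and without obese mouse 1 or 2 or with total-count scaling (obese). A second Col15a1 transcript (XR_001784085), annotated as non-coding, was at 3.46, 2.65, 2.14 and 1.39 CPM in SAT and at 1.53, 1.07, 0.383 and 0.343 CPM in VAT of obese mice. It was lower in VAT in each obese mouse (log2 -1.68, SE 0.44, adjusted p = 0.00588), while its lean values were 3.64, 2.67, 1.62 and 4.68 CPM in SAT and 0, 1.73, 1.39 and 1.77 CPM in VAT.

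Among microfibrillar chains, Col6a1 was higher in VAT in all 4 obese mice and without overlap (log2 0.54, SE 0.10, adjusted p = 0.000320), whereas in lean mice the difference was 0.03 (95% interval -0.18 to 0.24). The Col6a2 transcripts were higher in VAT of obese mice by log2 0.38 (NM_146007, adjusted p = 0.0102) and 0.32 (NM_001347207, adjusted p = 0.0487), and both were lost without obese mouse 4, and without the filter or the mouse block. With Col8a1 also lost without obese mouse 4, 3 collagen transcripts were called higher there. The call of NM_001347207 held in 2 of 8 fits that left out a mouse, without lean mouse 1 or obese mouse 1, and was also lost with RLE size factors. Summed per gene, Col6a2 was higher by 0.35 (adjusted p = 0.0115). Col6a6, a longer type VI chain, was at 1.69, 2.75, 0.621 and 1.08 CPM in SAT and at 6.52, 3.71, 3.93 and 3.00 CPM in VAT of obese mice. All VAT values lay above all SAT values (log2 1.54, SE 0.36, adjusted p = 0.00213), from 9 to 45 counts per library. In lean mice it was at 3.06, 0.844, 2.29 and 2.13 CPM in SAT and at 3.20, 2.51, 2.68 and 3.87 CPM in VAT (log2 0.66, adjusted p = 0.287).

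Of the remaining chains, Col12a1 was higher in VAT of lean mice without overlap (log2 1.67, SE 0.23, 95% interval 1.19 to 2.16, adjusted p = 1.62e-05), and in obese mice it differed by 0.53 (95% interval 0.11 to 0.95, adjusted p = 0.0539). The obese difference passed without lean mouse 3 (0.0408), lean mouse 4 (0.0217) or obese mouse 3 (0.0362), with current edgeR estimation (0.0379) and with total-count scaling (log2 0.86, adjusted p = 0.00417). Col8a1 was higher in VAT in 3 of 4 obese mice (log2 0.55, SE 0.18, adjusted p = 0.0225), a call lost without obese mouse 1, 2 or 4, the mouse block or the 2 shallow libraries. Col7a1, the anchoring fibril chain of epithelial junctions, was at 1.32, 0.141, 0.381 and 0.638 CPM in SAT and at 3.20, 1.08, 1.07 and 1.88 CPM in VAT of lean mice. In obese mice it was at 0.385, 0.847, 0.0690 and 0.386 CPM in SAT and at 1.53, 3.14, 1.15 and 1.03 CPM in VAT. It was higher in VAT in each mouse, by log2 1.64 (SE 0.54, adjusted p = 0.0445) in lean and 2.07 (SE 0.52, adjusted p = 0.00399) in obese mice, on 1 to 38 counts per library, having entered the test through its VAT libraries. The lean call was lost in 5 of 8 fits that left out a mouse (any lean mouse, or obese mouse 2) and without the 2 shallow libraries, which left 1 collagen transcript called higher.

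Col16a1, a fibril-associated chain, was at 0.385, 1.38, 1.24 and 0.617 CPM in SAT and at 0.383, 0.165, 0.0958 and 0.343 CPM in VAT of obese mice. The groups did not overlap, on 1 to 18 counts per library (log2 -2.03, SE 0.74, adjusted p = 0.0433), but the transcript was tested only because 4 SAT libraries exceeded 1 CPM. The call was lost without obese mouse 2 or 3, by DESeq2 (adjusted p = 0.0833), without the filter (0.061), without the mouse block (0.0507) and with total-count scaling (0.0846). With the counts of its 8 transcripts summed, Col16a1 differed by -0.90 (adjusted p = 0.277). In lean mice it was at 1.16, 0.141, 0.191 and 1.06 CPM in SAT and at 0, 0, 0.107 and 0.221 CPM in VAT, and did not pass. Non-overlap with VAT above was found in 1 of 21 collagen transcripts in lean and 3 in obese mice, beside 8.87% and 15.1% of all transcripts, and with VAT below in 2 and 4, beside 8.79% and 14.1%. Without Col7a1 and Col16a1, VAT lay above in 1 and 2 and below in 2 and 3 of the other 19.

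**Figure D5:**
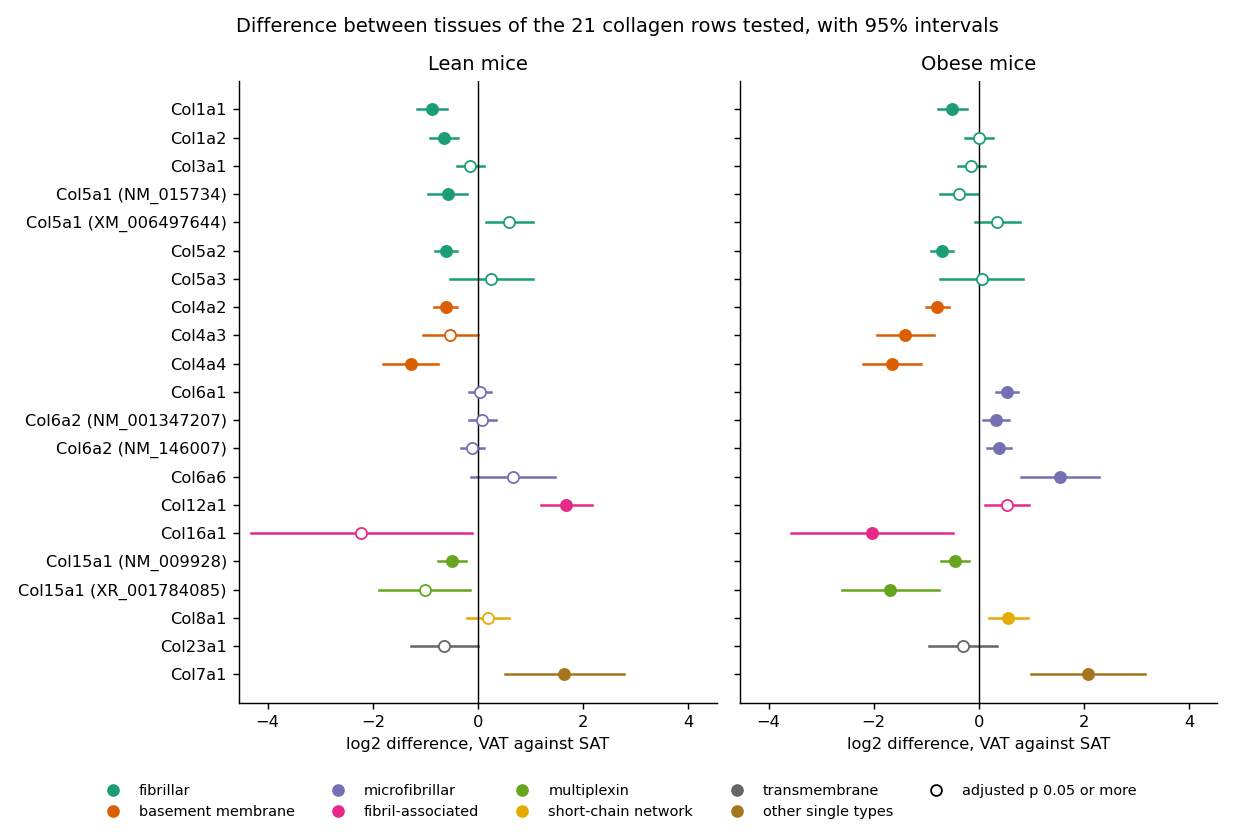
Log2 difference between VAT and SAT (x axis) with its 95% interval for the 21 tested collagen transcripts, in lean and in obese mice, coloured by class, with filled symbols where the adjusted p is below 0.05. Basement membrane chains lie at negative values in both diets, and the 4 microfibrillar transcripts lie above 0 in obese mice.

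The depots also differed in cell type markers. All 7 tested mesothelial transcripts were higher in VAT in both diets, but all 7 had entered the test through VAT. Over all transcripts, 8.0% were higher and 6.84% lower in VAT of lean mice, and 15.9% and 13.5% in VAT of obese mice. The B cell and lymph node list (5 genes) summed to 3.15 to 7.59 CPM in SAT and 76.5 to 359 CPM in VAT. Of 14 adipocyte transcripts, 1 was higher and 9 were lower in VAT of obese mice, and 1 was higher and 1 lower in lean mice. Of 10 fibroblast transcripts, 5 were higher and 1 lower in obese and 3 higher and 1 lower in lean mice. Of 7 smooth muscle and pericyte transcripts, 2 were higher and 2 lower in obese and 1 higher and 1 lower in lean mice. Of 8 endothelial transcripts, 1 was higher and 2 were lower in obese and 1 was higher in lean mice. Of the 4 macrophage transcripts other than Itgax, 4 were higher in VAT of obese and 2 in lean mice. Intestinal epithelium markers (5 genes) summed to 10.1 to 21.2 CPM in SAT and 11.5 to 41.0 CPM in VAT, exocrine pancreas markers (5 genes) to 71.3 to 209 CPM and 41.3 to 91.7 CPM, and nerve markers (5 genes) to 100.5 to 175 CPM and 116 to 182 CPM. The part of these cell types in the depot differences was not tested.

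Genes that act on collagen were taken from fixed lists, whose counts stand beside 6.20% of all transcripts called higher and 4.85% called lower in obese SAT and 6.82% and 4.09% in obese VAT. Some of these genes, among them Lox, Bgn, Thbs1 and Pxdn, are listed with several transcripts. Their values are those of a tested transcript, not of the whole gene, and low counts were not read as low expression. In the modification and folding list, 1 of 11 tested transcripts rose in obese mice in SAT and in VAT and none fell: P3h2, a prolyl 3-hydroxylase, rose by log2 0.57 in SAT (adjusted p = 0.0227) and 0.60 in VAT (adjusted p = 0.0158). In the processing and crosslinking list, 3 of 6 rose in SAT and 1 in VAT. Lox, the lysyl oxidase that starts crosslinking, rose in SAT by log2 1.62 (adjusted p = 0.0232), from a mean of 3.90 to 11.7 CPM. Pcolce2, an enhancer of C-propeptide removal, rose by 0.83 in SAT (adjusted p = 0.0143) and 0.74 in VAT (adjusted p = 0.0291), and Adamts2, the N-propeptidase, rose by 0.59 in SAT (adjusted p = 0.0202). The medians of these lists were 0.10 and 0.50 in SAT and 0.10 and 0.26 in VAT.

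Of the 16 tested transcripts of fibril-binding proteoglycans and glycoproteins, 2 rose and 3 fell in obese SAT, and 1 rose and 2 fell in VAT. Of Podn, a leucine-rich proteoglycan, 3 transcripts fell in SAT (log2 -1.66, -1.72 and -2.11, with adjusted p of 0.00456, 0.00283 and 0.0327), the last having exceeded 1 CPM in 6 lean and 2 obese libraries. The tested transcript of Bgn, which encodes biglycan and is listed with 2 transcripts, rose by 1.90 (adjusted p = 0.0142) from a mean of 0.942 to 4.02 CPM. This Bgn transcript exceeded 1 CPM in 3 lean and 7 obese libraries. In VAT a Podn transcript (log2 -1.13, adjusted p = 0.0372) and Thbs1, a matricellular thrombospondin (log2 -1.06, adjusted p = 0.0212), fell and Thbs2 rose by 0.60 (adjusted p = 0.00658). Among 10 tested basement membrane partners, 2 rose and 1 fell in SAT, with a median of 0.36, and 3 fell in VAT, with a median of -0.36. The laminin chain gene Lamc3 rose in SAT by log2 0.86 (adjusted p = 0.00101), Nid1, which encodes the laminin and collagen IV linker nidogen, rose by 0.39 (adjusted p = 0.0252) and its relative Nid2 fell (log2 -0.52, adjusted p = 0.0357). In VAT Nid2 (log2 -0.70, adjusted p = 0.00512), Pxdn, the peroxidase that crosslinks collagen IV (log2 -0.63, adjusted p = 0.0423), and the laminin chain gene Lama4 (log2 -0.56, adjusted p = 0.00657) fell. Among 9 tested receptor and uptake transcripts, Itga1, a collagen-binding integrin subunit, rose in SAT by 1.00 (adjusted p = 5.70e-05) and a transcript of Ddr2, a receptor tyrosine kinase for fibrillar collagen, by 0.79 (XM_006496696, adjusted p = 0.0167), whereas its other tested transcript did not pass (XM_006496697, log2 0.47, adjusted p = 0.189), and Mrc2, an endocytic collagen receptor, rose in VAT by 2.37 (adjusted p = 0.000989).

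The response to the diet differed between depots for 6 of the 52 tested transcripts of these lists (11.5%), beside 2.17% of all transcripts. It was higher in VAT for Loxl1 (log2 0.82, adjusted p = 0.0449) and Dpt (0.95, adjusted p = 0.00409), which encode a crosslinking enzyme and dermatopontin. It was lower in VAT for Thbs1 (-1.66, adjusted p = 0.00290), Pxdn (-0.99, adjusted p = 0.0308), Lamc3 (-1.20, adjusted p = 0.00170) and Itga1 (-0.76, adjusted p = 0.0192).

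Between depots, 8.0% of all transcripts were higher and 6.84% lower in VAT of lean mice, and 15.9% and 13.5% in VAT of obese mice. Basement membrane partners were lower in VAT of obese mice in 7 of 10 cases and higher in none (median -0.43), with Lamb3 at log2 -2.53 (adjusted p = 0.00959), Pxdn (-0.87, adjusted p = 0.000472) and Lamc3 (-0.62, adjusted p = 0.00164). Lamb3 and Hspg2 had entered the test through SAT, with 3 SAT libraries each above 1 CPM, and of the other 8 transcripts 6 were lower. In lean mice 2 were higher, Lamb1 (1.48, adjusted p = 0.00336) and Lamc3 (0.57, adjusted p = 0.00753). The 16 fibril-binding transcripts went both ways, with 5 higher and 4 lower in lean and 5 higher and 5 lower in obese mice. Fmod, which encodes fibromodulin, was higher in VAT by log2 4.23 in lean (adjusted p = 1.43e-12) and 4.30 in obese mice (adjusted p = 7.36e-13), while Dpt was lower in lean mice (log2 -1.76, adjusted p = 9.71e-10) and Prelp, another leucine-rich proteoglycan, in obese mice (log2 -1.68, adjusted p = 1.15e-07). Also among the largest were Thbs1 in lean mice (1.96, adjusted p = 7.27e-07) and Ogn in obese mice (1.31, adjusted p = 1.14e-07).

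In the modification list, none of 11 passed in lean mice and 3 were lower in VAT of obese mice: Fkbp14 (log2 -1.19), Sec23a (-0.75) and Plod1 (-0.33), with adjusted p of 0.0190, 0.0143 and 0.0250. In the processing list, Loxl3 was higher in lean mice (0.69, adjusted p = 0.00715), and in obese mice 2 of 6 were higher and 3 lower, with Lox at -2.22 (adjusted p = 0.000130), Loxl3 at 0.75 (adjusted p = 0.00111) and Loxl1 at 0.68 (adjusted p = 0.00140). In the receptor list, Mrc2 was lower in lean mice (-2.43, adjusted p = 5.08e-05), and in obese mice 3 of 9 were higher and 2 lower, among them the integrin genes Itga11 (2.15, adjusted p = 0.0187) and Itga10 (1.21, adjusted p = 0.000438) and Mrc2 (-1.19, adjusted p = 0.00252). Itga11 exceeded 1 CPM only in 5 VAT libraries, and without it 2 of 8 were higher and 2 lower.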

How the data were processed

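The authors trimmed reads of poly(A)-selected, directional libraries and aligned and counted them per RefSeq transcript, and the submitters' processing notes name FastQC 0.11.9, Trim Galore 0.6.6, HISAT2 2.2.0, bedtools 2.29.2, SAMtools 1.11, HTSeq 0.13.5, edgeR 3.34.0 and the build GRCm39. The deposited table gives raw counts and, beside them, CPM that the authors made by dividing by each library's total count; the CPM equal the counts divided by that total, and the counts were used here. The strand setting and the treatment of reads shared by transcripts are not given in the sources used here. Symbols were assigned by RefSeq accession to 81.96% of transcripts.

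Transcripts with CPM above 1 in at least 3 of 16 libraries were kept (13288). Counts were scaled by TMM and tested with edgeR 4.0.16 (R 4.3.3; quasi-likelihood F-test, legacy estimation), with Benjamini-Hochberg adjustment over all transcripts kept, and a transcript was called at an adjusted p below 0.05. Diet was tested over the means of 4 groups, and depot and the depot difference in response with the mouse as a block, since the column codes and the study's methods give each mouse a SAT and a VAT sample. Deviations from group means correlated over transcripts at -0.00901 to 0.173 between the samples of 1 mouse (8 pairs, median 0.0759) and at -0.154 to 0.121 between different mice across depots (24 pairs). No pair of replicates agreed within sampling noise. Separate mice gave the replicates.

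The collagen members, their classes, the gene lists and the tests were chosen with earlier results of these data known. Values in every library were given for collagen transcripts called with the diet or in the depot difference, for the most abundant transcript per kb of each class, and for the 3 called transcripts with the largest depot difference in each direction and diet; of each pathway list, the called members with the 3 largest changes were named, a few beyond the rule (Col5a2, Col5a1, Col6a2 and uncalled chains) being given by group. The marker lists were adipocytes, fibroblasts and progenitors, endothelium, smooth muscle and pericytes, mesothelium, macrophages, skeletal muscle, keratinocytes, intestinal epithelium, exocrine pancreas, nerve, and B cells and lymph node. Gene models, lengths and sequences came from the GENCODE annotation and genome of GRCm39. Alternatives were DESeq2 1.42.0, other scalings, filters and models, counts summed per gene, and leaving out each mouse; total-count scaling and leaving out the 2 shallow libraries were chosen after seeing the data.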

Additional observations from a re-analysis of the deposited data

Results flagged for a closer look

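In 4 of 84 groups of 4 libraries, 1 library stood apart from the other 3 by Dixon's criterion, a rate near the 1 in 20 that chance alone gives. Col8a1 was at 78.7 CPM in SAT of obese mouse 3 (1141 counts), with the other obese SAT libraries at 41.5 to 46.2 CPM. It was at 97.0 CPM in VAT of obese mouse 4 (1132 counts), with the others at 65.9 to 68.6 CPM. Col5a3, a fibrillar type V chain, was at 19.9 CPM in VAT of lean mouse 1 on 31 counts, with the others at 3.22 to 4.09 CPM. A Col5a1 transcript (NM_015734) was at 23.4 CPM in VAT of obese mouse 1 on 61 counts, with the others at 25.9 to 26.4 CPM. The last 2 values come from the shallow libraries, and the part of depth in them was not tested.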

How the results depend on the processing

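None of the 28 called collagen differences changed sign under an alternative run. Of the 77 uncalled ones, 28 changed sign under at least 1 alternative, 9 of them with total-count scaling, and none was called in either direction there. In obese SAT, 2 collagen transcripts rather than 1 were called higher by DESeq2, with RLE size factors, with current edgeR estimation, within SAT libraries alone, without the filter, with the replicate number as a block and without the 2 shallow VAT libraries, Col8a1 being gained. Called lower in obese SAT, against 0, were 2 by DESeq2, with current estimation and within SAT alone, 1 with counts summed per gene and with the replicate block, 3 without the shallow libraries and 4 with total-count scaling. In VAT, 1 rather than 2 was called higher with counts summed per gene, edgeR's filterByExpr, total-count scaling or without the shallow libraries, and 1 rather than 2 lower within VAT alone. Higher in VAT of lean mice was 1 rather than 2 without the filter, without the mouse block and without the shallow libraries, and without the block 4 rather than 7 were lower; in obese mice 3 rather than 6 were higher without the block. With total-count scaling 5 rather than 8 were lower in VAT of obese mice, and 3 rather than 0 had a higher diet response in VAT; DESeq2 gave 3 higher and 1 lower responses, and no filter gave 1 lower. Total-count scaling moved the median log2 value of all transcripts to -0.20 in SAT between diets, to 0.15 and 0.38 between depots of lean and obese mice and to 0.23 for the depot difference in response. The cause of these changes was not tested.

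Leaving out each mouse gave 1 to 2 higher and 0 lower in obese SAT, 1 to 2 higher and 1 to 2 lower in obese VAT, 1 to 2 higher and 5 to 8 lower in VAT of lean mice, 3 to 6 higher and 5 to 10 lower in VAT of obese mice, and 0 to 1 in each direction for the depot difference in response. The block by replicate number gained Col8a1 and Col4a4 in SAT and changed no other collagen call between diets, whose mice share only a number (deviations correlated at -0.0942 to 0.173 in 8 pairs). A single count in VAT lean 1 was worth 0.796 CPM, and Col7a1, Col16a1 and Col6a6 had at most 45 counts in any library, deep ones included. With 4 mice a group and 1 sex, an uncalled transcript is bounded only by its interval, and genes with no tested transcript were not assessed.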
